A study of Homo sapiens with 4 samples.

Results

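S100A genes and annexins were read as 2 families of calcium-responsive proteins in the glioblastoma cell lines U251 and U87. The members were all protein-coding genes whose symbol is S100A or ANXA followed by a number, with S100A7A included. They were 28 genes, 16 S100A genes and 12 annexins, among 58735 genes listed, of which 19951 were protein-coding. The rule goes by gene names. RNA was sequenced from 4 libraries, 1 per condition, named U251 Control, U251 Bru, U87 Control and U87 Bru. The Bru libraries came from cells given brusatol (Bru), a plant quassinoid, for 48 h at the IC50 of that line, and the Control cells received the DMSO vehicle. Both are established human glioblastoma lines, and no genetic change is named for either, so a difference between them is a difference between 2 lines and not between tumours, and with 1 library per condition no replicate spread exists for any value below.

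S100 proteins are small dimeric proteins in which each chain carries a pair of EF-hand loops, helix-loop-helix sites for calcium. On binding calcium most of them expose a surface that docks partner proteins, and several are also released from cells and act on receptors such as RAGE and TLR4. Annexins are a separate family built of repeated helical domains that bind membranes rich in acidic phospholipids when calcium rises. Members of both families pair with each other: S100A10 with annexin A2, S100A11 with annexin A1 and A2, and S100A6 with annexin A11 and others. In astrocytes and glioma these genes are known for roles in migration, membrane repair and inflammation.

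The level of each gene is given as FPKM, fragments scaled to the exon length of the gene in kilobases and to the library size. Reads per gene were recovered from the FPKM and the gene length, and added up to 17083896 to 21453561 per library. At that depth 3 reads on a gene of 1 kilobase correspond to an FPKM of 0.143 to 0.172. Ratios are log2 ratios on FPKM + 0.1, and each bracketed range is a 95% exact interval (Clopper-Pearson) computed from the reads alone, without the added 0.1. The intervals cover counting error only, since reads without molecular identifiers are not independent molecules, and they compare libraries, not conditions. In these bulk samples, a change in the share of cells that express a gene and a change in RNA per cell cannot be told apart. The listed markers of glial and glioma cells were mixed and did not settle the glial identity of the libraries. VIM stood at 606 to 701 FPKM and CD44 at 94.5 to 125 FPKM in all 4 libraries. SOX2 was at 129 and 91.2 FPKM in the U251 libraries but at 0 and 0.0457 FPKM in the U87 libraries. NES was at 125, 50.6, 1.46 and 0.569 FPKM in the order U251 Control, U251 Bru, U87 Control, U87 Bru. That order is kept throughout. GFAP was at 2.42, 1.08, 0.215 and 0.147 FPKM. OLIG2 lay the other way, at 0.0284, 0.0644, 0.627 and 1.05 FPKM, and S100B, the S100 gene used as a marker of astrocytes, had 9 reads in U251 Control and 0 in the other libraries.

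The C-terminal EF-hand loop is the site where S100 proteins bind calcium most tightly, and its last residue, normally glutamate, grips the ion with both of its side-chain oxygens. The codons of this loop are shown for 5 expressed members because they differ at that residue. The 36 coding bases were read from GENCODE release 29 transcripts (GRCh38), all lie within 1 exon on the minus strand, and the last codon is in capitals.
S100A6, chr1:153534753-153534788: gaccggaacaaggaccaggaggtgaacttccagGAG
S100A4, chr1:153543843-153543878: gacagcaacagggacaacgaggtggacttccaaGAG
S100A2, chr1:153561511-153561546: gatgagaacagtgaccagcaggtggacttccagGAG
S100A11, chr1:152032743-152032778: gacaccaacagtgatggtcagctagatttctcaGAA
S100A10, chr1:151983244-151983279: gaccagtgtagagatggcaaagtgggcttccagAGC
The last codon is GAG or GAA, both glutamate, in S100A6, S100A4, S100A2 and S100A11. It is AGC, a serine codon, in S100A10, the family member known to hold its active shape without calcium. The search used a fixed pattern of loop residues that left the last codon free. It read the longest complete coding sequence of each gene and kept only matches that start within a fixed stretch of it. It found a loop in 11 of the 16 S100A genes and none in S100A1, S100A3, S100A13, S100A14 and S100A16. This says only that those sequences have no match to that pattern within that stretch. The S100A1 sequence used was the longest of the S100A genes, at 147 codons, so a loop further along it would have been missed.

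Of the 28 members, 17 averaged 1 FPKM or more across the libraries, namely 8 of 16 S100A genes and 9 of 12 annexins. Among all protein-coding genes 10851 of 19951 did. The members below that mean are described by their reads after the expressed members. S100A6 had the highest FPKM of the members in every library. It stood at 1726, 2327, 1064 and 1087 FPKM, which ranked it 10th, 6th, 17th and 17th among protein-coding genes. S100A6 alone gave 69.7%, 74.3%, 55.2% and 56.0% of the summed FPKM of the S100A genes. S100A11 followed at 348, 421, 375 and 440 FPKM, and then S100A16 at 211, 203, 306 and 234 FPKM and S100A10 at 123, 108, 148 and 152 FPKM. The other 4 expressed S100A genes, S100A2, S100A13, S100A3 and S100A4, lay between 0.841 and 44.0 FPKM.

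Among the annexins, ANXA1, ANXA2 and ANXA5 led in every library. ANXA1 stood at 228, 144, 675 and 660 FPKM, ANXA2 at 254, 224, 178 and 168 FPKM, and ANXA5 at 180, 158, 181 and 160 FPKM. ANXA2 had the highest FPKM in the U251 libraries and ANXA1 in the U87 libraries. The order of ANXA2 and ANXA5 depended on the gene length used: FPKM divides by all 8824 exon bases annotated for ANXA2, and on 1 complete coding transcript of 1444 bases ANXA2 came to 1553, 1371, 1085 and 1026 in the same unit, above ANXA5 at 309, 272, 312 and 276 in every library. On the same scale S100A6 stayed the leading S100A gene, with 2520, 3398, 1553 and 1588. ANXA1 came to 688.5, 436.1, 2041 and 1995 on that scale, so in the U87 libraries it stood above S100A6. The first place of S100A6 among all members in U87 thus depended on the gene length used.

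**Figure D1:**
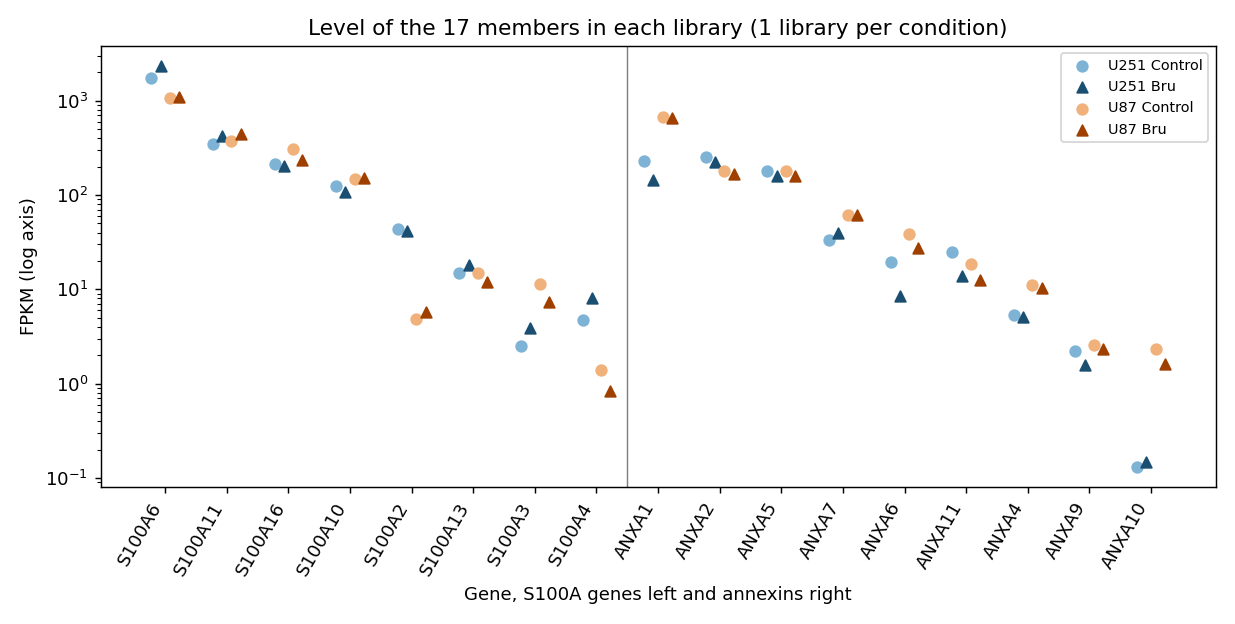
FPKM of the 17 expressed members on a log axis, with S100A genes left of the vertical line and annexins right of it, each ordered by mean level; circles are Control and triangles Bru libraries, 1 library each. S100A6 lies highest in every library, and S100A2 and ANXA10 separate the U251 from the U87 libraries more than they separate Control from Bru. ANXA10 passed the minimum mean FPKM only through the U87 libraries.

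The comparison of Bru with Control in U251 asked how these families stood after Bru. S100A6 was higher in U251 Bru and ANXA1, ANXA6 and ANXA11 were lower, while each family also held members in the other direction, among them S100A10 and ANXA7. The median log2 ratio was 0.28 over the 8 expressed S100A genes and -0.18 over the 9 expressed annexins, beside -0.03 over the 12949 genes that averaged 1 FPKM or more, here called all genes tested. Of the S100A genes 5 were higher and 3 lower, and of the annexins 2 were higher and 7 lower, beside 47.2% of all genes higher and 52.1% lower. The interval lay above 0 for 5 S100A genes and 1 annexin, beside 30.9% of all genes, and below 0 for 2 S100A genes and 5 annexins, beside 35.9%. An interval narrows as reads increase, and all genes were not matched to the members in reads. The counts of intervals are therefore not a like comparison. The summed FPKM of the S100A genes went from 2474 to 3134, a log2 ratio of 0.34, and that of the annexins from 747.3 to 595.1, a log2 ratio of -0.33. Of all reads, the S100A genes took 0.251% in U251 Control and 0.33% in U251 Bru, and the annexins 0.421% and 0.359%.

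Only ANXA6 passed a log2 ratio of 1 or -1 in U251. No member was above 1, where 3.36% of all genes tested were, and 1 of 9 annexins and 0 of 8 S100A genes were below -1, where 5.44% were. Above 0.5 were S100A3 and S100A4, 2 of 8 S100A genes (25.0%) and 0 of 9 annexins, beside 14.3% of all genes. Below -0.5 were ANXA1, ANXA6 and ANXA11, 3 of 9 annexins (33.3%) and 0 of 8 S100A genes, beside 19.1% of all genes.

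ANXA6, the annexin with a doubled core that binds actin and cholesterol-rich membrane, stood at 19.6 FPKM in U251 Control and 8.46 FPKM in U251 Bru, on 2229 and 851 reads. Its log2 ratio was -1.20, with an interval of -1.33 to -1.10. ANXA11, which links RNA granules to lysosomes, went from 24.9 to 13.8 FPKM, a log2 ratio of -0.85 (-0.93 to -0.78). ANXA1, the glucocorticoid-induced annexin that acts on formyl peptide receptors, went from 228 to 144 FPKM, a log2 ratio of -0.66 (-0.69 to -0.63). All 3 were lower in U251 Bru by more than counting error.

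ANXA2 and ANXA5 were also lower, by less. ANXA2, a membrane scaffold and a cell-surface site for plasminogen activation, had a log2 ratio of -0.18 (-0.20 to -0.16). ANXA5, whose binding to exposed phosphatidylserine underlies its use as a stain for dying cells, had a log2 ratio of -0.18 (-0.22 to -0.14). ANXA7, first described as synexin, was the only annexin whose interval lay above 0 in U251: it went from 33.6 to 39.2 FPKM, a log2 ratio of 0.22 (0.13 to 0.31). For ANXA4, ANXA9 and ANXA10 the interval included 0. ANXA4 went from 5.40 to 5.13 FPKM and ANXA9 from 2.19 to 1.60 FPKM, and ANXA10 had 5 reads in each U251 library.

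Among the S100A genes of U251, S100A6 (calcyclin) went from 1726 to 2327 FPKM, on 35145 and 41881 reads, a log2 ratio of 0.43 (0.41 to 0.45). S100A11 (calgizzarin) went from 348 to 421 FPKM, a log2 ratio of 0.28 (0.22 to 0.33). S100A13, known for its part in the release of FGF1 and interleukin 1 alpha, went from 14.7 to 18.0 FPKM, a log2 ratio of 0.29 (0.14 to 0.44). These 3 were higher in U251 Bru beyond counting error.

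The largest S100A ratios in U251 came from genes with few reads. S100A4 (metastasin), which binds non-muscle myosin, had 101 reads in Control and 155 in Bru, or 4.70 and 8.16 FPKM, a log2 ratio of 0.78 (0.43 to 1.17). S100A3 had 50 and 69 reads, or 2.50 and 3.90 FPKM, a log2 ratio of 0.62 (0.10 to 1.20). Both intervals lie above 0 and reach past 1. S100A10 was lower, at 123 and 108 FPKM with a log2 ratio of -0.18 (-0.25 to -0.11), and S100A16 was lower by little, with a log2 ratio of -0.05 (-0.10 to -0.0036), a sign that turned under another processing choice. S100A2 stood at 44.0 and 41.9 FPKM, and its interval of -0.18 to 0.04 included 0.

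In U87 the annexins lay closer to their Control level than in U251, and the S100A genes about as far from it. The median log2 ratio was -0.14 over the S100A genes and -0.14 over the annexins, beside -0.04 over all genes tested. Taken without its sign, the log2 ratio had a median of 0.28 in U251 and of 0.27 in U87 over the S100A genes, 0.22 and 0.14 over the annexins, and 0.34 and 0.17 over all genes. Of the S100A genes 4 were higher and 4 lower in U87, and of the annexins 1 was higher and 8 lower, beside 42.3% of all genes higher and 56.7% lower. The summed FPKM was 1926 in U87 Control and 1941 in U87 Bru for the S100A genes, a log2 ratio of 0.01, and 1169 and 1104 for the annexins, a log2 ratio of -0.08. No member was above 1 or below -1, where 1.92% and 1.41% of all genes were, and none was above 0.5, where 5.75% were. Below -0.5 were S100A3, S100A4 and ANXA11, that is 2 of 8 S100A genes and 1 of 9 annexins, beside 6.46% of all genes.

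In U87 the largest shift on many reads was again in annexins. ANXA11 stood at 18.3 FPKM in U87 Control and 12.6 FPKM in U87 Bru, a log2 ratio of -0.54 (-0.63 to -0.46), and ANXA6 at 39.0 and 27.6 FPKM, a log2 ratio of -0.49 (-0.57 to -0.42). ANXA5 went from 181 to 160 FPKM, a log2 ratio of -0.18 (-0.22 to -0.14), which is close to its value in U251. ANXA2 was lower by a log2 ratio of -0.08 (-0.10 to -0.06), ANXA4 by -0.11 (-0.20 to -0.02) and ANXA1 by -0.03 (-0.05 to -0.02), a sign that turned under another processing choice. The interval lay below 0 for 6 annexins and 3 S100A genes, beside 28.0% of all genes, and above 0 for 0 annexins and 2 S100A genes, beside 15.7%. For ANXA7, ANXA9 and ANXA10 it included 0, with ANXA7 at 61.2 and 61.3 FPKM. As in U251, all genes were not matched to the members in reads.

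Of the S100A genes in U87, S100A16 was lower, from 306 to 234 FPKM on 9421 and 6928 reads, a log2 ratio of -0.39 (-0.43 to -0.34). S100A13 went from 14.8 to 12.0 FPKM, a log2 ratio of -0.31 (-0.49 to -0.13), and S100A3 from 11.4 to 7.40 FPKM, on 196 and 123 reads, a log2 ratio of -0.61 (-0.96 to -0.29). These 3 were the S100A genes with an interval below 0. S100A11 was higher at 375 and 440 FPKM, a log2 ratio of 0.23 (0.18 to 0.29), and S100A6 at 1064 and 1087 FPKM was higher by a log2 ratio of 0.03 (0.0025 to 0.06). S100A10, S100A2 and S100A4 had intervals that included 0, and S100A4 rested on 26 and 15 reads.

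**Figure D2:**
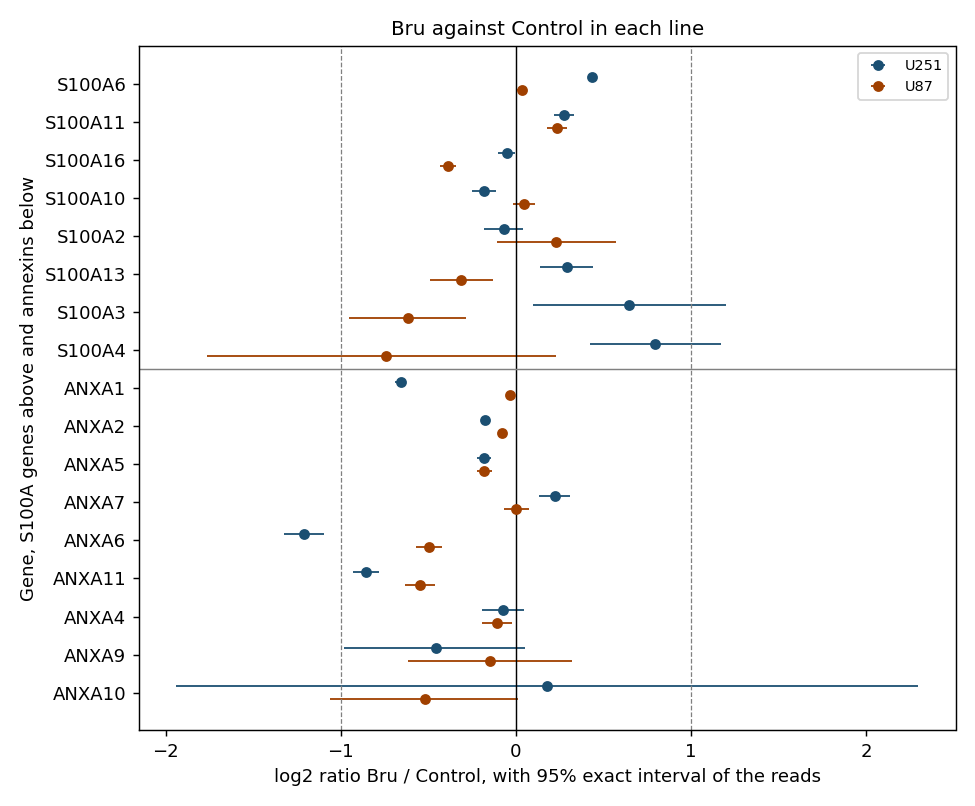
log2 ratio of Bru to Control without added constant for each expressed member in U251 (blue) and U87 (brown); bars are 95% exact intervals of the reads and dashed lines mark 1 and -1. ANXA6 in U251 is the only point past a dashed line, and S100A13, S100A3 and S100A4 lie right of 0 in U251 and left of 0 in U87.

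**Figure D3:**
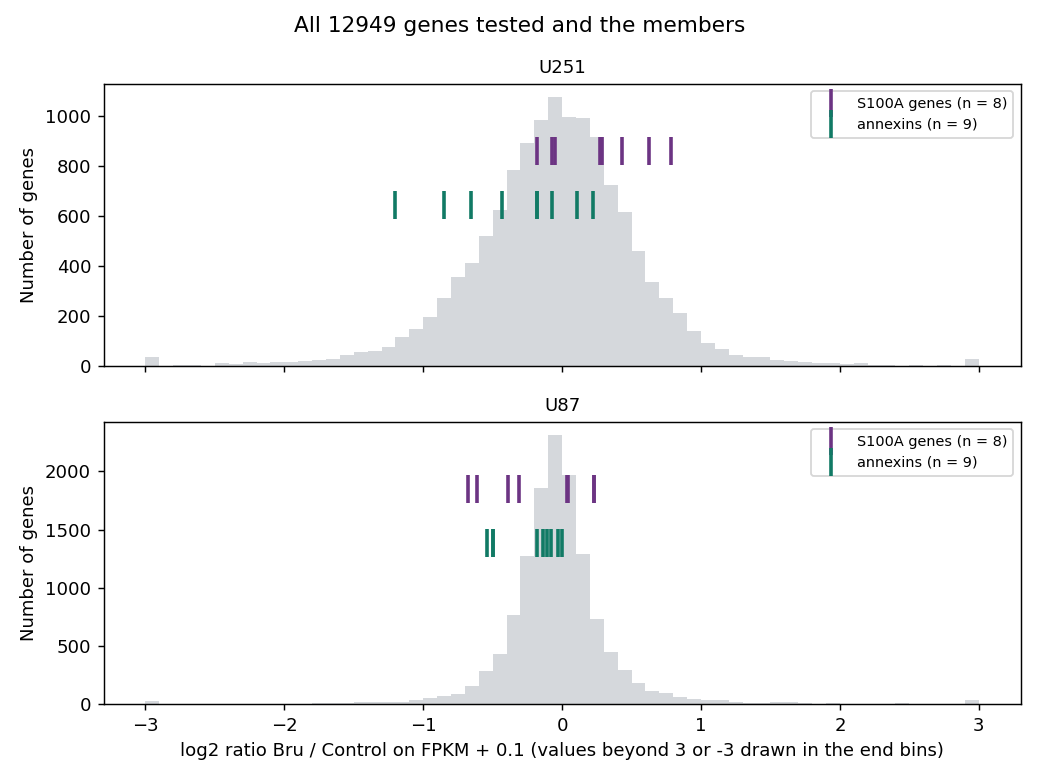
Number of genes by log2 ratio of Bru to Control (grey bars, 12949 genes) in U251 and U87, with the 8 expressed S100A genes as purple ticks and the 9 expressed annexins as green ticks. Both families lie within the spread of all genes, and that spread is narrower in U87, with a median absolute log2 ratio of 0.17 against 0.34 in U251.

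The directions in the 2 lines were then set side by side. Of the 9 annexins 7 were lower in both lines (ANXA1 and ANXA4 among them, each of which changed sign in 1 line under another processing choice), 1 was higher in both and 1 was on opposite sides, and of the 8 S100A genes 1 was lower in both, 2 were higher in both and 5 were on opposite sides. Over all genes tested 37.5% were lower in both lines and 32.6% on opposite sides. These are counts of signs. ANXA7, the annexin higher in both, and S100A16, the S100A gene lower in both, also changed sign in 1 line under another processing choice. Of the 5 S100A genes on opposite sides, S100A2, S100A4 and S100A10 had an interval that included 0 in 1 line. Only S100A3 and S100A13 had intervals on opposite sides of 0. The difference of the log2 ratios, U87 minus U251, was set against counting error with an exact conditional interval.

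A difference above 0.5 was seen for ANXA1 and ANXA6, 2 of 9 annexins and 0 of 8 S100A genes, beside 15.5% of all genes. For ANXA1 it was 0.63 (0.59 to 0.66), with the Bru library lower in U251 and within a log2 ratio of 0.05 of Control in U87. For ANXA6 it was 0.72 (0.58 to 0.85), with the Bru library lower in both lines. A difference below -0.5 was seen for S100A3, S100A4 and S100A13, 3 of 8 S100A genes, and for ANXA10, 1 of 9 annexins, beside 13.7% of all genes. It was -1.26 (-1.91 to -0.61) for S100A3, -1.54 (-2.63 to -0.48) for S100A4 and -0.60 (-0.84 to -0.37) for S100A13. For ANXA10, on 5 reads in each U251 library, the interval of -2.89 to 1.50 included 0. For S100A6 and S100A16 the difference was -0.40 (-0.44 to -0.36) and -0.34 (-0.40 to -0.27), and for S100A11 the interval of -0.12 to 0.04 included 0.

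The known partner pair S100A10 and ANXA2 kept its ratio of FPKM in U251, at 0.484 in Control and 0.483 in Bru, since both genes had a log2 ratio of -0.18. In U87 that ratio was 0.832 and 0.907. For the pair S100A11 and ANXA1 the ratio was 1.53 in Control and 2.92 in Bru in U251, and 0.555 and 0.667 in U87. For S100A6 and ANXA11 it was 69.3 and 169 in U251, and 58.0 and 86.6 in U87. For S100A11 and ANXA2 it was 1.37 and 1.88 in U251, and 2.11 and 2.62 in U87. In the last 3 pairs the S100A gene gained on its annexin in both lines. Since FPKM depends on the annotated length, only the change of such a ratio between libraries is read here.

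Between the Control libraries of the lines 6 of the 17 members passed 1 or -1. The median log2 ratio of U87 Control to U251 Control was 0.06 over the S100A genes and 0.86 over the annexins, beside -0.01 over all genes. Above 1 were S100A3, ANXA1, ANXA4 and ANXA10, 1 of 8 S100A genes and 3 of 9 annexins, beside 14.5% of all genes. ANXA10 reached a mean of 1 FPKM only through the U87 libraries. Its place above 1 and its part in the annexin median were therefore set by that filter and are no evidence for the family. The annexin median was 0.86 with a minimum of 5 FPKM, which leaves out ANXA9 and ANXA10. With no minimum it was 0.22. ANXA4 ranged from 0.92 to 1.10 and ANXA6 from 0.92 to 1.06 over the processing choices, so that the annexin count ran from 2 to 4. Below -1 were S100A2 and S100A4, 2 of 8 S100A genes and 0 of 9 annexins, beside 16.0% of all genes. The summed annexin FPKM was 747.3 in U251 Control and 1169 in U87 Control, of which ANXA1 made 30.5% and 57.8%.

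S100A2, a gene known as a target of p53 and p63, stood at 44.0 and 41.9 FPKM in the U251 libraries and at 4.87 and 5.72 FPKM in the U87 libraries. The log2 ratio of U87 Control to U251 Control was -3.15 (-3.44 to -2.92). S100A3 lay the other way, at 2.50 and 3.90 FPKM in U251 and 11.4 and 7.40 FPKM in U87, a log2 ratio of 2.14 (1.73 to 2.66), and S100A4 at 4.70, 8.16, 1.40 and 0.841 FPKM had -1.67 (-2.42 to -1.11). The libraries of the 2 lines did not overlap for S100A2, S100A3 or S100A4, which are neighbours on the chromosome. Both U87 libraries were above both U251 libraries for 3 of 8 S100A genes and 6 of 9 annexins, beside 35.0% of all genes. They were below them for 3 of 8 and 1 of 9, beside 36.9%. The 6 annexins include ANXA10, which passed the minimum mean FPKM only through the U87 libraries. The ratio of S100A3 to S100A4 was 0.531 and 0.478 in U251 and 8.09 and 8.80 in U87.

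ANXA1 was higher in U87 Control, with a log2 ratio of 1.57 (1.55 to 1.59). ANXA4 stood at 5.40, 5.13, 11.1 and 10.3 FPKM, a log2 ratio of 1.02 (0.94 to 1.14), and ANXA6 at 0.99 (0.92 to 1.07) and ANXA7 at 0.86 (0.78 to 0.95) were also higher in U87 Control. ANXA10 had 5 reads in each U251 library and 76 and 51 in the U87 libraries, 0.132, 0.149, 2.32 and 1.62 FPKM, and its log2 ratio of 3.39 on FPKM + 0.1 goes with a read interval of 2.86 to 5.80. ANXA2 and ANXA11 lay the other way, with -0.52 (-0.54 to -0.50) and -0.44 (-0.51 to -0.37). For ANXA5 the interval was -0.02 to 0.05, and for ANXA9 it also included 0. S100A6 was lower in U87 Control, with -0.70 (-0.72 to -0.67), and S100A16, S100A10 and S100A11 were higher, with 0.54 (0.50 to 0.58), 0.26 (0.20 to 0.33) and 0.11 (0.05 to 0.16). S100A13 was at 14.7 and 14.8 FPKM, with an interval of -0.15 to 0.17.

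**Figure D4:**
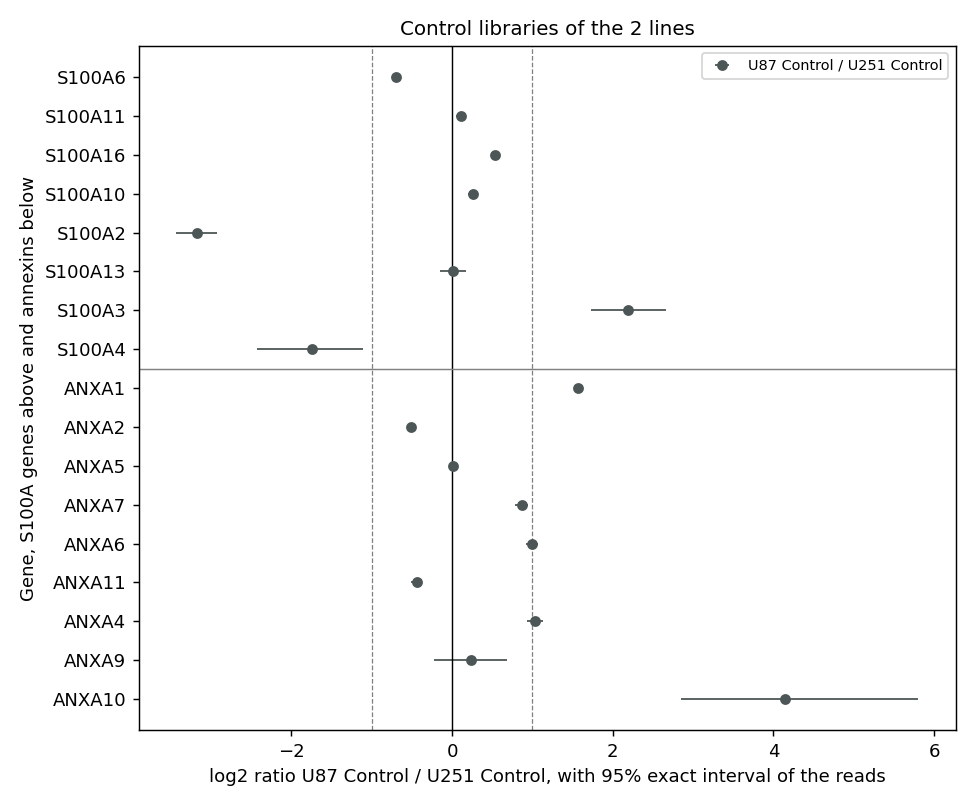
log2 ratio of U87 Control to U251 Control without added constant for each expressed member; bars are 95% exact intervals of the reads and dashed lines mark 1 and -1. S100A2 lies lowest and ANXA10 highest, and S100A13 and ANXA5 lie at 0. ANXA10 passed the minimum mean FPKM only through the U87 libraries.

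All 16 S100A genes lie on chromosome 1. S100A10 and S100A11 stand 1310 kb before a cluster of 14 genes that spans 274.2 kb, chr1:153357854-153632039 in the coordinates of the files, which equal those of GENCODE release 29 (GRCh38). In chromosome order the cluster opens with S100A9, S100A12, S100A8, S100A7A and S100A7, which hold the calprotectin subunits S100A8 and S100A9 of phagocytes and the psoriasins of skin. S100A9 had 0, 1, 0 and 2 reads, and S100A12, S100A8, S100A7A and S100A7 had 0 reads in all 4 libraries, which at 3 reads allows up to 0.333 FPKM for S100A12 in U87 Bru and less for the other 3. Then, 73.9 kb on, came S100A6 with 18380 to 41881 reads.

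Levels within the cluster changed from gene to neighbouring gene. S100A5, 0.903 kb from S100A6, had 5, 3, 5 and 5 reads. S100A16 had 6413 to 9421 reads, and S100A14, 1.11 kb from it, had 5, 4, 5 and 1. S100A1, the S100 gene of heart and skeletal muscle, had 26, 45, 45 and 45 reads and a mean FPKM of 0.721, and its log2 ratio was 0.82 in U251, on reads with an interval of 0.24 to 1.73, and 0.05 in U87 with an interval of -0.57 to 0.68. Myeloid and epithelial markers were likewise near 0. Of PTPRC, CD14, LYZ, ITGAM and FCGR3A, 0 of 5 averaged 1 FPKM, and their summed FPKM was 0.353, 0.793, 0.166 and 0.683; of KRT5, KRT14, KRT1, EPCAM and CDH1 0 of 5 did, and of PECAM1, VWF and CDH5 0 of 3. Of the annexins below the filter, ANXA3 had 0 reads in all libraries, ANXA8 had 5, 7, 0 and 4, and ANXA13 had 1, 5, 0 and 1.

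**Figure D5:**
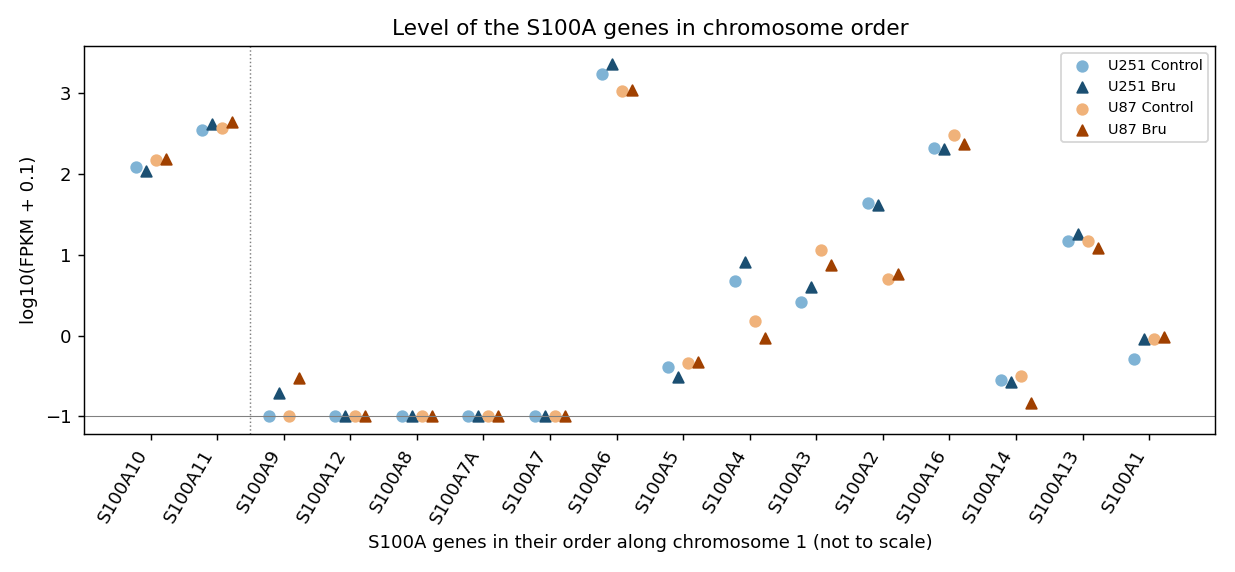
log10 of FPKM + 0.1 of the 16 S100A genes in their order along chromosome 1 (equal spacing, not to scale), with circles for Control and triangles for Bru libraries; the dotted line stands for the 1310 kb between S100A11 and S100A9, and the grey line at -1 is 0 FPKM. Genes with 0 to 2 reads stand in 1 run before S100A6, which has the highest level.

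The promoters of the members were searched for short motifs. RefSeq windows of 300 bases (GRCh38.p14) were at hand for 26 of the 28 members, the 17 expressed and 9 others, and both strands were read. The GC box GGGCGG was in 12 of the 17 expressed members and in 1 of the 9 others, S100A9, beside 48.3% of all genes and 44.9% of all promoters with a window. TATAAA was in 6 of 17 and 5 of 9, beside 14.0% of all genes and 11.5% of promoters. The letters are shown for expressed members with a GC box and for genes of the silent run with TATAAA, with the motif in capitals and the bases read on the strand of the gene.
S100A11, chr1:152037055-152037084, minus strand: ggaggcggggagGGGCGGggcaggcgcgga
S100A16, chr1:153609383-153609412, minus strand: gaggcgtggcttGGGCGGggcgagagtgat
ANXA2, chr15:60398047-60398076, minus strand: aagggggaggcgGGGCGGggcggggcgggc
ANXA7, chr10:73414168-73414197, minus strand: ggtggcgcctagGGGCGGgactgagggaca
S100A9, chr1:153357813-153357842, plus strand: tcaggagctgccTATAAAtgccgagcctgc
S100A7A, chr1:153416480-153416509, plus strand: caggctgagcctTATAAAggactgctcttt
The first motif base lies 68, 45, 78, 127, 29 and 28 bases before the start, in this order. A match is a description of the letters and was not tested as a site.

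The AP-1 motif TGANTCA was in 3 of the 17 expressed members, S100A2, S100A3 and ANXA2, and in 2 of the 9 others, S100A5 and S100A12, beside 9.37% of all genes and 7.71% of promoters. The antioxidant response element core TGACNNNGC, the motif of NRF2, was in S100A13, S100A16 and ANXA7 of the 17 and in S100A14 of the 9, beside 16.1% of all genes and 13.4% of promoters. The AP-1 letters are shown for S100A2 and S100A3, whose levels in the 2 Control libraries lay in opposite directions.
S100A2, chr1:153565878-153565908, minus strand: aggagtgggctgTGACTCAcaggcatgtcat
S100A3, chr1:153549465-153549495, minus strand: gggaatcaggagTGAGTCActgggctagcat
The motif starts 52 bases before the start of S100A2 and 225 bases before that of S100A3.

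Some members share sequence with other genes, so their reads may be split. ANXA2 has a processed pseudogene on chromosome 9, ANXA2P2, identical to its coding sequence at 1001 of 1017 aligned bases (98.4%). ANXA2P2 was listed with 2989, 2322, 1779 and 1616 reads, or 5.98%, 5.95%, 5.91% and 5.90% of the reads of both. Adding them left the log2 ratios of ANXA2 at -0.18 in U251, -0.08 in U87 and -0.52 between the Control libraries. S100A13 shares 33.5% of its exon bases with other annotated genes. It shares 536 bases with AL162258.1 on the same strand, where strand could not separate the reads. With S100A1 on the opposite strand it shares 235 bases. The library kit does not mark strand, so reads of S100A13 and S100A1 there cannot be told apart. ANXA8, on few reads, has 71.9% of all runs of 50 bases in common with other genes, ANXA8L1 among them.

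Genes known to work with these families were counted from lists. Of the 9 listed receptors of S100 proteins and annexin A1, 4 averaged 1 FPKM or more and none passed 1 or -1 in either line. Among them FPR1, a formyl peptide receptor for annexin A1, stood at 0.0735, 0.104, 2.62 and 1.59 FPKM, on 4, 5, 123 and 72 reads. It averaged 1 FPKM only through the U87 libraries. The related FPR2 had 0, 0, 3 and 2 reads, and FPR3 had 0 reads in all 4 libraries. A link between FPR1 and ANXA1 was not tested. Of 20 intracellular partners 15 were expressed. In U87 none was above 1 or below -1, where 1.92% and 1.41% of all genes were. In U251 1 of the 15 was above 1 and 1 below -1, beside 3.36% and 5.44% of all genes. They were AHNAK2, a scaffold related to the S100A10 partner AHNAK, at 6.73, 14.8, 51.0 and 43.5 FPKM with log2 ratios of 1.12 for U251 and -0.23 for U87, and GCA (grancalcin), another EF-hand protein, at 7.85, 3.76, 4.79 and 3.50 FPKM with -1.04 and -0.44.

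The plasmin system, which annexin A2 and S100A10 serve as a surface receptor, had 3 genes below -1 in U251 among the 9 of 10 listed that were expressed, beside 5.44% of all genes, with a list median of -0.80 in U251 and -0.39 in U87. PLAU, the urokinase activator of plasminogen, stood at 126, 34.4, 64.1 and 42.0 FPKM, with log2 ratios of -1.87 for U251 and -0.61 for U87. PLAT, the tissue activator, stood at 22.5, 10.5, 1.73 and 1.13 FPKM, with -1.10 and -0.58. SERPINE2, an inhibitor of both activators, stood at 28.8, 5.25, 15.7 and 12.0 FPKM, with -2.43 and -0.39. None of the 9 passed 1 or -1 in U87. ENO1 and PLGRKT, receptors of plasminogen, lay the other way in U251, with 0.34 (0.33 to 0.36) and 0.40 (0.24 to 0.56), and had 0.01 and 0.23 in U87. Of 5 listed S100 relatives (S100B, S100P, S100G, S100Z and S100PBP) 2 averaged 1 FPKM or more. Of 7 S100-fused proteins 0 did, and of 9 annexin relatives and pseudogenes of the members 2 did. None of those that did passed 0.5 or -0.5 in either line. Of all genes 14.3% and 19.1% did in U251, and 5.75% and 6.46% in U87. FLG, an S100-fused protein, had a mean of 0.903 FPKM but stood at 1.81, 1.68, 0.0217 and 0.0946 FPKM.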

How the data were processed

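RNA of U251 and U87 cells was sequenced as 1 Control and 1 Bru library per line, with the NEB Next Ultra kit and paired-end Illumina reads. The authors deposited FPKM per gene with the gene length used. The submitters' processing notes name HISAT2 2.0.5, StringTie 1.3.3b, featureCounts 1.5.0-p3, DESeq2 1.16.1 and the build hg18, but 58735 of 58735 genes have the coordinates of GENCODE release 29 (GRCh38), and the strand setting of the counting is not given in the sources used here. Whole reads were recovered from FPKM times length for 100% of values within 0.05 reads.

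Ratios were computed in Python 3.11.15 (numpy 2.4.6, scipy 1.17.1) for the 12949 genes that averaged 1 FPKM or more, with a pseudocount of 0.1. Each condition has 1 library, so no p-value is given for a comparison within a line or between the lines. The only p-values come from the fit over both lines described below. The members, lists and motifs were chosen with earlier results of these data known. All members are accounted for, and of the listed partners those past a log2 ratio of 1 or -1 in a line are named. TLR4, FLG, FPR1, FPR2 and FPR3 were named after their values were seen. Alternatives were other pseudocounts, minimum levels, scalings and protein-coding genes alone; a length per coding transcript and a fit over both lines (limma 3.58.1 on log2(FPKM + 0.1), with and without the line as a block) were added after the data were seen.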

Additional observations from a re-analysis of the deposited data

Results flagged for a closer look

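S100A3 and S100A13 stood out because Bru and Control lay in opposite directions in the 2 lines by more than counting error, which was set by an exact interval of the reads and not by replicates, so the difference between the lines was not tested. The log2 ratio in U87 minus that in U251 was -1.26 for S100A3, which had 50 and 69 reads in U251 and 196 and 123 in U87. It was -0.60 for S100A13, which had 684 and 739 reads in U251 and 594 and 461 in U87.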

How the results depend on the processing

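Within a line no pairing exists, with 1 library per condition. Over both lines, limma with the line as replicate block, added after seeing the data, called 0 of 17 members and 0 of 12949 genes at an adjusted p of 0.05, with 2 members (ANXA6 and ANXA11, smallest adjusted p = 0.215) and 1835 genes at an unadjusted p under 0.05; without the block it called 0 members and 0 genes, with 0 and 83 at an unadjusted p under 0.05. Of the family medians, the family counts and the shares of all genes past 1 or -1 under the alternatives, 168 stayed within the limits set and 18 moved. With no minimum level, 4 S100A genes in place of 2 and 1 annexin in place of 0 were above 0.5 in U251, 1 S100A gene and 1 annexin were above 0.5 in U87 in place of 0, and the annexin median between the Control libraries was 0.22. The S100A median in U87 (-0.14) was 0.0371 with no minimum and 0.0320 with a minimum of 0.1 or 5 FPKM. A minimum of 5 FPKM left 1 S100A gene above 0.5 in U251, 1 below -0.5 in U87 and 1 below -1 between the Control libraries. A pseudocount of 1 left 1 S100A gene above 0.5 in U251 and 1 below -0.5 in U87. A pseudocount of 0.01 put 2 annexins below -0.5 in U87, and rescaling to the 75th percentile put 0 there. Among protein-coding genes alone, 2.06% were above 1 in U251, and 0.295% were above 1 and 0.59% below -1 in U87. Of 51 log2 ratios of members, 44 kept their sign in every alternative and 7 did not: ANXA1 and ANXA7 in U87, ANXA4, S100A2 and S100A16 in U251, and ANXA5 and S100A13 between the Control libraries. Of the member values under the alternatives, 297 stayed within the interval of the reads and 50 lay outside it. Scaled to the reads on genes, ANXA2 in U251 was -0.09 in place of -0.18. On that scale S100A6 in U251 was 0.52 in place of 0.43, and 3 S100A genes were above 0.5. For members with many reads the interval can thus be narrower than the effect of the scaling. Counting error limits S100A3, S100A4, ANXA9 and ANXA10 most.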
